A study of Homo sapiens with 2 samples.

Results

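MicroRNA hairpin loci are the short stretches of the genome whose transcripts fold into the precursors of microRNAs. The deposited gene table of a clusterin experiment on D407 cells listed 1305 of them among 37364 genes, and the 231 with a mean level of at least 1 RPKM (reads scaled to gene length and library total) over both libraries are described here. The rule took rows named MIR followed by a digit or by LET, without the host transcripts whose names end in HG. The study had 2 libraries, 1 from control D407 cells and 1 from D407 cells given clusterin, a chaperone protein that cells secrete. D407 is an established human cell line that the labels call retinal pigment epithelium (RPE), and both groups share the line and the serum-containing medium. For how long and at which dose clusterin was given is not stated in the sources used here. Polyadenylated RNA was captured on oligo(dT) beads, broken into fragments and copied with random primers, so the libraries were not made to measure mature microRNAs, and the levels below are those of whatever captured RNA gave reads over a hairpin. Each group had 1 library, so differences between them could not be tested, and the intervals printed below cover counting error only.

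MicroRNAs are cut out of long primary transcripts by the nuclear enzyme DROSHA with its partner DGCR8, exported by XPO5, cut again by DICER1 and loaded onto an AGO protein. The loaded strand pairs with messenger RNAs mainly through its seed, a short run of bases near its 5′ end, and lowers their stability and translation. Many hairpins lie inside protein-coding or long noncoding host genes, and neighbouring hairpins are often cut from a shared primary transcript. In RPE the microRNAs miR-204 and miR-211 are known for their high level and their part in keeping the differentiated state.

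The library totals by which the authors divided came to about 38200000 reads for the control and 33200000 for clusterin. Of 10 RPE marker genes, 6 (RPE65, RLBP1, LRAT, TTR, TYR and DCT) were listed at 0 in both libraries. MITF, a transcription factor of pigment cells, stood at 9.70 RPKM in the control and 9.88 with clusterin, and BEST1, a chloride channel of RPE, at 2.14 and 1.73. A 0 in this table need not mean low expression, since the ribosomal protein gene RPS18, which all cells use, was also listed at 0 in both libraries. Of 6 simple epithelial markers, the keratin genes KRT7, KRT8, KRT18 and KRT19 were above 1 RPKM, CDH1 stood at 0.0163 and 0.0250, and EPCAM was listed at 0. Of 6 fibroblast markers, the matrix proteoglycan genes LUM (46.2 and 45.7 RPKM) and DCN (25.9 and 24.9) were the highest. COL1A1 stood at 1.15 and 0.920, and COL1A2, COL3A1 and PDGFRB were below 1 RPKM in both libraries. CLU, which encodes clusterin itself, stood at 35.9 RPKM in the control and 33.8 with clusterin. In bulk RNA such as this, fewer cells expressing a gene and less RNA per cell cannot be told apart.

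The loci on which the results below turn include the paired 23a and 23b clusters, the hairpins that share the seed of miR-17, and MIR675. Their mature microRNAs are printed 5′ to 3′ from RefSeq (GRCh38.p14), with the seed, bases 2 to 8, in capitals. Paralogous pairs have a common seed and differ further along, which is why a read total per seed is given later beside the total per locus.
miR-23a-3p: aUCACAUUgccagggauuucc
miR-23b-3p: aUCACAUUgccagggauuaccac
miR-27a-3p: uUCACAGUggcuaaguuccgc
miR-27b-3p: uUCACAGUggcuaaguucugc
miR-24-3p: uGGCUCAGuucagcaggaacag
miR-17-5p: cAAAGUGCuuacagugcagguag
miR-93-5p: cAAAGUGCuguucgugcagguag
miR-106b-5p: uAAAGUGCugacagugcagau
miR-25-3p: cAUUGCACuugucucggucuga
let-7a-5p: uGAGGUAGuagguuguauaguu
let-7b-5p: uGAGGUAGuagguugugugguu
miR-193a-3p: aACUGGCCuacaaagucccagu
miR-193b-3p: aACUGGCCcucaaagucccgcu
miR-675-5p: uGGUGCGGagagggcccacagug
miR-675-3p: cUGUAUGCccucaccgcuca
Both MIR24-1 and MIR24-2 give the same miR-24-3p, so a mature read could not be assigned to either locus, whereas the 2 hairpin loci have separate levels in the table.

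Most hairpin loci had few reads. The median member had a mean of 3.25 RPKM and 19.0 reads over both libraries, and 141 of the 231 had a mean below 5 RPKM. Whole numbers of reads could be recovered from the levels for 217 members. Of these, 37 had at least 100 reads, 67 had 20 to 99 and 113 had fewer than 20. At the median hairpin length of 82 bp (range 53 to 180), 1 RPKM was worth 3.14 reads in the control and 2.72 with clusterin. A few loci held nearly all of the signal. MIR675 alone took 39.9% of the 62513 reads recovered for the 217 members, and the 10 of these loci with the most reads took 82.7%. The shares leave out the 14 members without recovered reads, among them MIR4426 at 564 RPKM in the control and 485 with clusterin. Of the hairpin rows that were not members, 1051 were listed at 0 in both libraries, none was at 0 in 1 library only and 23 were above 0 with a mean below 1 RPKM. The lowest total recovered for any hairpin row was 6 reads over both libraries. The plot of levels in both libraries shows the loci by their read totals.

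**Figure D1:**
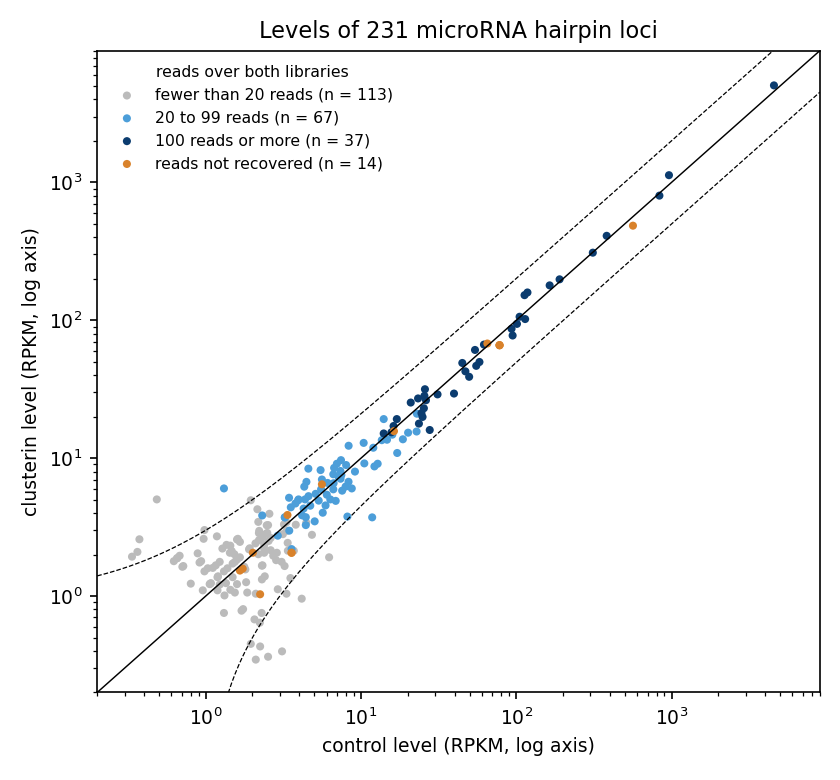
Level of each of the 231 hairpin loci in the control library (x axis, RPKM) and the clusterin library (y axis, RPKM), both on log axes, coloured by the reads over both libraries. The solid line marks equal levels and the dashed lines a 2-fold difference on the log2(RPKM + 1) scale. Loci with 100 reads or more all lie between the dashed lines, and the 16 loci outside them have 6 to 42 reads.

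MIR675 had by far the highest level. It lies at chr11:1996759-1996831 (GRCh38, minus strand) inside H19, an imprinted long noncoding RNA that is the known precursor of miR-675. MIR675 stood at 4564 RPKM in the control (12739 reads) and 5047 with clusterin (12224 reads), while H19 stood at 8859 and 8976. The ratio of the MIR675 levels was 1.11, with a 95% interval of 1.08 to 1.13 from counting error, and the log2 difference was 0.15 for MIR675 against 0.02 for H19.

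Several other abundant loci lie over transcripts of another kind. MIR3648 stood at 962 RPKM in the control and 1127 with clusterin, and RefSeq places its 2 copies, MIR3648-1 and MIR3648-2, inside a ribosomal RNA precursor gene, RNA45SN2. The ribosomal precursor listed as RNA45S5 stood at 6101 and 6521 RPKM in the same libraries. The ribosomal RNA listed as RNA5-8S5 went the other way, at 839.6 and 544. MIR3687, whose position in the table is not on GRCh38, stood at 113 and 152 RPKM. Oligo(dT) capture is meant to leave ribosomal RNA behind, and the part of any carry-over in these values was not tested. Another 4 hairpins overlap small nucleolar or Cajal body RNAs by at least 20 bp. MIR1248 stood at 190.0 and 198 RPKM beside 195 and 199.8 for SNORA81, which covers 102 of its 106 bp. MIR1291 stood at 118 and 159 beside 145 and 196 for the snoRNA listed as SNORA34, and both had a log2 difference of 0.43. MIR3651 stood at 61.9 and 66.6 beside 79.8 and 87.7 for SNORA84. MIR3609, which shares 33 of its 80 bp with SCARNA28, stood at 382 and 409.5 while its host TRRAP, a scaffold of histone acetyltransferase complexes, was at 4.66 in both.

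Some hairpin levels cannot be assigned to 1 place in the genome. MIR4426, at 564 and 485 RPKM, overlaps a pseudogene of the ribosomal protein gene RPS27A, which itself stood at 239 and 224. MIR3654, at 835 and 801, overlaps a pseudogene inside CHCHD3, a mitochondrial membrane organiser that stood at 31.2 and 30.6. MIR1244-1, MIR1244-2 and MIR1244-3 on 3 chromosomes were all listed at 78.0 and 65.9 RPKM. The first of them lies inside PTMA, the prothymosin alpha gene, which stood at 613 and 533. Reads of near-identical copies could be split or shared by the authors' counting, so these values are uncertain.

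Other abundant loci were close to equal in the libraries. MIR1282, on the strand opposite the readthrough gene SERF2-C15ORF63, stood at 164 and 179 RPKM, and that gene at 71.1 and 79.5. MIR636 in SRSF2, a splicing factor gene, stood at 105 and 106 beside 72.2 and 71.2 for its host. MIR4721 in TUFM, a mitochondrial elongation factor gene, stood at 93.2 and 86.7 beside 117 and 111. All 3 had ratio intervals that held 1.

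By position, 225 of the 231 members matched RefSeq's GRCh38 hairpins. Of all members, 170 lay inside another gene on its strand, 31 outside other genes, 18 inside a gene on the other strand only, 4 over another small RNA gene and 2 over a pseudogene only, while 6 had positions not on GRCh38. A host gene on the same strand was found for 174, and 159 had a host with a level in the table (140 different genes). Whether a hairpin lies in an exon or an intron of its host was not analysed here.

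Hairpin level was compared with host level per length in the control library for the 153 members whose host had a mean level of 1 RPKM or more and which overlapped no other small RNA gene. The median hairpin stood at 0.560 times its host (0.592 in the clusterin library), and 78 of the 153 lay between 0.5 and 2 times. Another 23 were below 0.1 times and 11 above 2 times. Among hairpins with at least 20 reads the median was 0.913 times, a choice by the hairpin's own reads that raises the ratio by construction. All members were likewise admitted by their own level, so hairpins listed at 0 do not enter these medians. The lowest was MIR590 in EIF4H, a translation initiation factor gene, at 0.00697 times, with 1.35 RPKM against 193. MIR93 and MIR106B in MCM7, a subunit of the replicative helicase, came next to it at 0.00992 and 0.0121 times. At the other end, MIR3654 stood at 26.8 times CHCHD3 and MIR1244-3 at 55.1 times A2MP1. Both of these are among the loci with pseudogene overlap or near-identical copies, and the listed A2MP1 model does not hold MIR1244-3, which RefSeq's longer span does. The host span came from RefSeq alone for 9 of the 153.

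Hairpins near the start of a host had a higher median level relative to it, with a wide range. For the 18 within 500 bp of the host's start the median was 1.23 times the host (range 0.107 to 4.74). Among these 18, 5 exceeded 2 times, while others were below their host, such as MIR4707 at 0.481 times HAUS4. Of the 117 further than 500 bp from both ends, the median was 0.546 times and 5 exceeded 2 times. Near the start, MIR3652 in HSP90B1, an endoplasmic reticulum chaperone gene, stood at 311 RPKM in the control and 309 with clusterin, against 133 and 125 for the host. MIR3655 in the splicing factor gene IK stood at 114 and 102 against 39.2 and 35.7. MIR1181, 57 bp into CDC37, a kinase co-chaperone gene, stood at 101 and 94.1 against 76.8 and 82.1. Across the 153 pairs, log2 hairpin and log2 host levels had a Pearson correlation of 0.53 and the levels a Spearman correlation of 0.40 in the control; all points share 1 library, several share a host, and reads of a hairpin may also have been counted for its host.

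**Figure D2:**
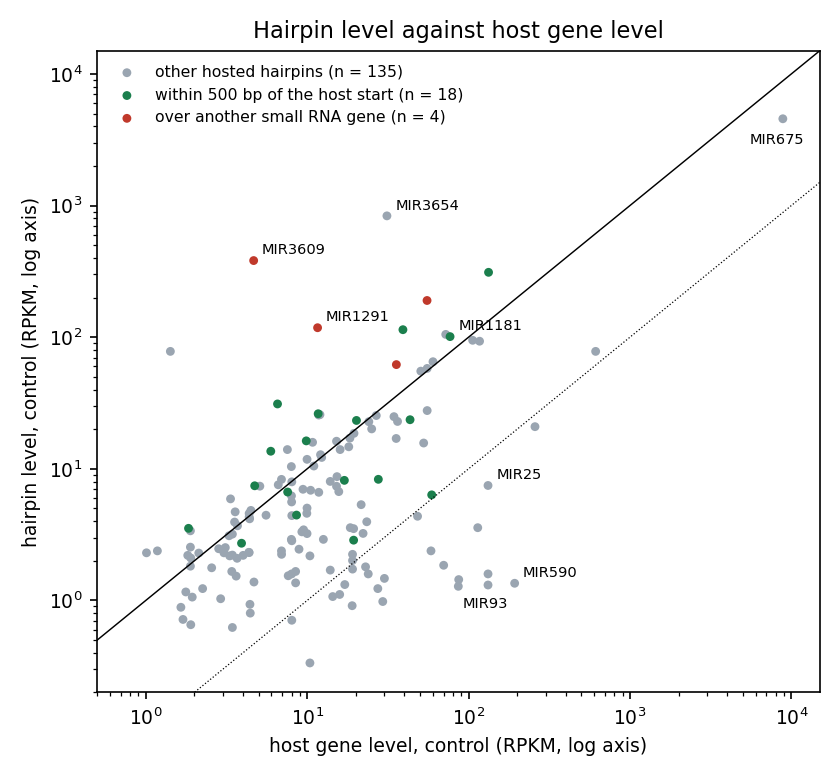
Level of each hairpin in the control library (y axis, RPKM) against that of its host gene (x axis, RPKM), both on log axes, for hosts with a mean level of 1 RPKM or more. The solid line marks equal levels and the dotted line 0.1 times the host. The 18 hairpins within 500 bp of the host start (green) have a median of 1.23 times the host, and the 4 hairpins over another small RNA gene (red) lie above the solid line.

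Between the libraries the hairpin loci were centred near no difference. The median of log2((clusterin RPKM + 1)/(control RPKM + 1)) was -0.01 over the 231 members and -0.06 over the 13244 genes whose mean reached 1 RPKM; with the control rescaled to a median of 0 over all genes, it was 0.06 over the members. It was above 0 for 115 members and below 0 for 116, so 50.2% were lower with clusterin, against 70.2% of all genes. Loci with equal reads in both libraries count as above 0 because the control total was larger, for example MIR21 with 12 reads in each. The part of such ties in the contrast with all genes was not tested. The median log2 difference over 265 other short RNA genes was 0.04. The spread narrowed with depth. Among the 37 loci with at least 100 reads the differences ran from -0.76 to 0.43, and among the 113 with fewer than 20 reads from -1.55 to 2.02. A difference of at least 1 on this scale, called 2-fold, was reached by 16 members (6.93%), 7 of them higher with clusterin (3.03%) and 9 lower (3.90%). Over all 13244 genes the shares were 0.219% in either direction, 0.106% higher and 0.113% lower. Over the other short RNA genes, which had a median of 153 reads, they were 2.64%, 1.89% and 0.755%. None of the 16 had 100 reads or more, 14 had fewer than 20, and for 11 of them the counting interval of the ratio held 1. Of the 16, 11 were below 1 RPKM in 1 library and so were admitted through the library in which they were high, and 5 had at least 1 RPKM in both. A pseudocount of 0.1 RPKM in place of 1 gave 34 such loci, and a pseudocount of 5 gave 0. The mean that admitted a locus was taken over these same libraries, so a locus high in either could pass: 201 members had at least 1 RPKM in both libraries, 12 in the control only and 18 with clusterin only.

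For a second measure that takes depth into account, the ratio of the RPKM values was given an exact 95% interval from the recovered reads. It left out 1 for 13 of 217 members (5.99%), 6 above 1 (2.76%) and 7 below 1 (3.23%). Among them, MIR1281 (0.484 RPKM in the control) and MIR4720 (0.397 with clusterin) were admitted through the library in which they were high. A 95% interval misses the true ratio at some loci through counting error alone, and the pooled 5.99% is close to the share so allowed. The share was uneven by depth. By depth, the 13 were 7 of the 37 loci with at least 100 reads, 3 of the 67 with 20 to 99 and 3 of the 113 with fewer. The part of counting error in them was not tested. With 99% intervals, 5 members lay above 1 and 2 below. Among 249 other short RNA genes with recovered reads, which were deeper, the 95% interval left out 1 for 24.5%, 16.9% above and 7.63% below. When the control was rescaled so that the median difference over all genes was 0, 9 members had an interval above 1 and 3 below. In the authors' deposited table, 12 members had a q-value below 0.05, 6 higher and 6 lower with clusterin, against 16.6% of all 13244 genes. Those q-values rest on the same 2 libraries and give no replicate error. Out of the 231 members, the 12 include MIR1244-1, MIR1244-2 and MIR1244-3, which are 1 set of values listed under each name.

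Of the 6 loci with a ratio above 1, MIR675, MIR3648, MIR1291 and MIR3687 were abundant and differed little. The ratio was 1.17 for MIR3648 (95% interval 1.13 to 1.21), 1.35 for MIR1291 (1.17 to 1.54) and 1.35 for MIR3687 (1.14 to 1.59). As described above, MIR3648 lies in a ribosomal precursor gene, and MIR1291 over a snoRNA with an equal difference. The other two rested on few reads. MIR93, at chr7:100093768-100093847 (minus strand) inside MCM7, stood at 1.31 RPKM in the control (4 reads) and 6.03 with clusterin (16 reads), a ratio of 4.61 with an interval of 1.49 to 18.9. Its host MCM7 stood at 132 and 128. MIR1281, 44 bp upstream of the listed start of the histone acetyltransferase gene EP300, stood at 0.484 RPKM (1 read) and 5.02 (9 reads), a ratio of 10.4 with an interval of 1.44 to 455. EP300 stood at 2.69 and 2.44.

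Of the 7 loci with a ratio below 1, MIR3620, MIR324 and MIR5047 had at least 100 reads. MIR3620 in ARF1, a GTPase of Golgi vesicle transport, had levels of 94.7 and 77.5 RPKM, giving a ratio of 0.818 (0.680 to 0.983), while ARF1 was at 106 in both. MIR324 lies on the strand opposite ACADVL, a mitochondrial fatty acid oxidation gene that stood at 110.1 and 104. Its levels were 39.7 and 29.4 RPKM, giving a ratio of 0.741 (0.553 to 0.987), and without a stated strand setting its reads cannot be told apart from those of ACADVL. MIR5047 in DDX5 stood at 27.7 RPKM (106 reads) and 16.0 (53 reads), a ratio of 0.576 (0.406 to 0.809). DDX5, an RNA helicase that is itself a cofactor of DROSHA, stood at 55.4 and 52.6.

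The remaining 4 had 10 to 42 reads. MIR23A, at chr19:13836587-13836659 (minus strand), had 33 reads in the control and 9 with clusterin, levels of 11.8 and 3.72 RPKM and a ratio of 0.314 (0.132 to 0.671). MIR4707, 113 bp into HAUS4, a gene of the spindle augmin complex, had 25 and 10 reads, a ratio of 0.461 (0.198 to 0.994). MIR4701 in the adenylate cyclase gene ADCY6 had 15 and 4 reads, a ratio of 0.307 (0.0742 to 0.965). MIR4720 had 9 and 1 reads, levels of 3.10 and 0.397 RPKM and a ratio of 0.128 (0.00292 to 0.924). HAUS4 stood at 17.0 RPKM in the control and 14.1 with clusterin, and ADCY6 at 7.99 and 7.86. The upper limits for MIR324, MIR3620, MIR4707, MIR4701 and MIR4720 all lay between 0.924 and 0.994, close to 1.

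**Figure D3:**
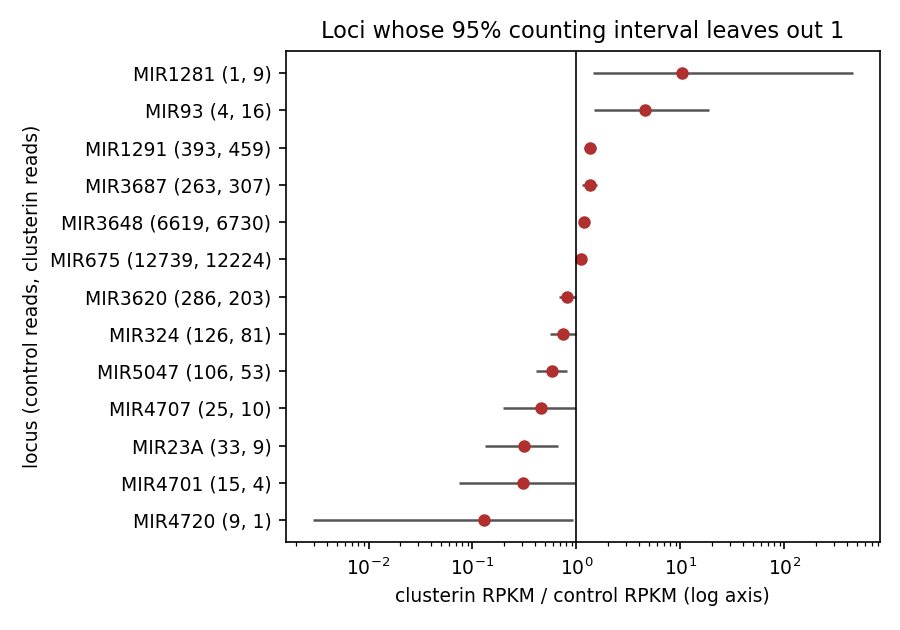
Ratio of the clusterin to the control RPKM (x axis, log scale) for the 13 hairpin loci whose exact 95% counting interval leaves out 1, with the reads in control and clusterin after each name. Points are ratios, bars are intervals and the vertical line marks equal levels. The intervals of MIR675 (1.08 to 1.13) and MIR3648 (1.13 to 1.21) are narrow, and that of MIR1281 runs from 1.44 to 455.

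The other 11 loci past 2-fold had intervals that held 1. Higher with clusterin were MIR1204 (5 and 11 reads), MIR1908 in the fatty acid desaturase gene FADS1 (3 and 8), MIR4482-1 (1 and 6), MIR103A2 in the pantothenate kinase gene PANK2 (1 and 5) and MIR30C2 (1 and 5). Lower were MIR4674 (11 and 3 reads), MIR3143 (10 and 2), MIR193B (8 and 1), MIR4793 in CELSR3 (7 and 1), MIR4668 in UGCG (6 and 1) and MIR3124 (5 and 1). FADS1 stood at 29.4 and 27.4 RPKM, PANK2 at 10.4 and 11.4, CELSR3 at 1.90 and 1.88, and UGCG at 6.94 and 5.95. None of these listed hosts was 2-fold apart.

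Host genes differed little between the libraries. Among 135 hosts compared, the log2 differences ran from -0.59 to 0.23, and only AMH was 0.5 or more from 0. AMH, the anti-Mullerian hormone gene, stood at 2.13 and 1.08 RPKM, and its hairpin MIR4321 at 2.29 (7 reads) and 0.754 (2 reads). Of the 24 hosted hairpins with at least 100 reads and no overlap with another small RNA gene, 19 had a difference within 0.25 of that of their host. The other 5 were MIR5047 (-0.69 relative to DDX5), MIR4745 in the splicing regulator gene PTBP1, MIR3620 in ARF1, MIR4647 in the nucleotide sugar transporter gene SLC35B2 and MIR612 in NEAT1, the long noncoding RNA of paraspeckles. MIR612 had a log2 difference of 0.26 and a level of 20.9 RPKM in the control, against -0.22 and 258 for NEAT1. The listed NEAT1 model ends before MIR612, which only RefSeq's longer span holds, so the 258 is not the level of a listed transcript over the hairpin.

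**Figure D4:**
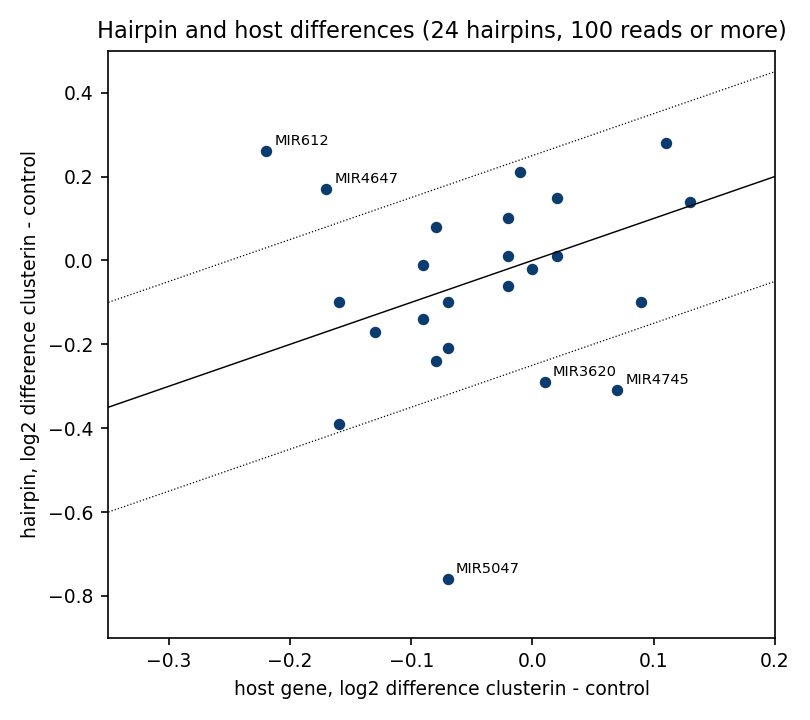
Log2 difference of each of 24 hairpins with at least 100 reads (y axis) against that of its host gene (x axis), both clusterin minus control on the log2(RPKM + 1) scale. The solid line marks equal differences and the dotted lines 0.25 to either side; 19 hairpins lie between them, and MIR5047 lies furthest below at -0.76 against -0.07 for DDX5.

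Within 10000 bp of each other, 44 members formed 18 genomic clusters, and 16 of these had recovered reads. Reads were summed over hairpins of 1 strand that did not overlap, since neighbours can share a primary transcript and are not replicates. The interval of the summed ratio lay above 1 for 1 cluster, below 1 for 3 and held 1 for 12. For comparison, intervals without 1 were found for 5.99% of single members and 24.5% of the other short RNA genes. No allowance was made for the number of clusters summed. The paired 23a and 23b clusters were on opposite sides. In the 23a cluster (chr19:13836287-13836659), MIR23A had 33 reads in the control and 9 with clusterin, MIR27A 15 and 9, and MIR24-2 9 and 4. All 3 were lower, together 57 and 22 reads, a ratio of 0.445 (0.259 to 0.739). Without MIR23A the other two had 24 and 13 reads, a ratio of 0.624 (0.292 to 1.28), so the interval rested on MIR23A. Their host transcript, listed as LOC284454, stood at 9.98 and 8.97 RPKM, although its listed model holds none of the 3 hairpins whole, and only RefSeq's longer span does.

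The 23b cluster (chr9:95085208-95086094) lies in C9orf3, an aminopeptidase gene at 4.37 and 4.29 RPKM. MIR23B had 17 reads in the control and 27 with clusterin, MIR27B 16 and 20, and MIR24-1 6 and 6. Together they had 39 and 53 reads, a ratio of 1.57 (1.02 to 2.43), whose lower limit is close to 1. Without MIR23B the sum was 22 and 26 reads, a ratio of 1.36 (0.742 to 2.52), and without MIR27B it was 23 and 33, a ratio of 1.65 (0.942 to 2.95). MIR3074, on the other strand over MIR24-1, had 17 and 22 reads. With it in place of MIR24-1 the sum was 50 and 69 reads, a ratio of 1.59 (1.09 to 2.34); the choice to sum 1 strand was made after both values were seen. Whether the clusters differed from each other was not tested.

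Of the other clusters with a ratio below 1, MIR3064 and MIR5047 in DDX5 had 252 and 162 reads, a ratio of 0.741 (0.604 to 0.906), and MIR3064 alone 146 and 109, a ratio of 0.860 (0.665 to 1.11). MIR193B and MIR365A had 15 and 4 reads, a ratio of 0.307 (0.0742 to 0.965). MIR193B, at 2.52 RPKM in the control and 0.363 with clusterin, was admitted through the control, the library in which it was high. Neither hairpin alone had an interval without 1, MIR193B at 0.144 (0.00325 to 1.07) and MIR365A at 0.494 (0.0824 to 2.16).

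The clusters around the miR-17 family were near equal or higher with clusterin, and their summed intervals held 1. In the 106b-25 cluster inside MCM7 (chr7:100093560-100094074), MIR106B had 5 and 5 reads, MIR93 4 and 16, and MIR25 24 and 21, together 33 and 42, a ratio of 1.47 (0.908 to 2.39). In the control MIR25 stood at 7.47 RPKM, above MIR93 at 1.31 and MIR106B at 1.59, and all were far below MCM7 at 132. In the 17-92 cluster on chromosome 13, 3 of the 6 hairpins were members. MIR17 had 2 and 5 reads, MIR18A 6 and 7, and MIR19A 10 and 9, together 18 and 21, a ratio of 1.34 (0.682 to 2.68), and their host MIR17HG stood at 3.44 and 3.12 RPKM. MIR20A, MIR19B1 and MIR92A1 were listed at 0 in both libraries.

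The let-7b cluster (MIRLET7A3, MIR4763 and MIRLET7B) had 44 and 32 reads, a ratio of 0.838 (0.514 to 1.35), in a host, MIRLET7BHG, at 8.03 and 7.22 RPKM. MIR3618 and MIR1306, in the gene of the DROSHA partner DGCR8, had 35 and 25, a ratio of 0.823 (0.472 to 1.42). MIR421 and MIR374B in FTX, a noncoding gene of the X inactivation centre, had 18 and 12, a ratio of 0.768 (0.338 to 1.69), and MIR374C on the other strand 7 and 5. MIR2861 and MIR3960, upstream of the transcription kinase gene CDK9, had 13 and 14 reads and 12 and 9. MIR2682, beside MIR137, stood at 3.36 and 3.87 RPKM.

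**Figure D5:**
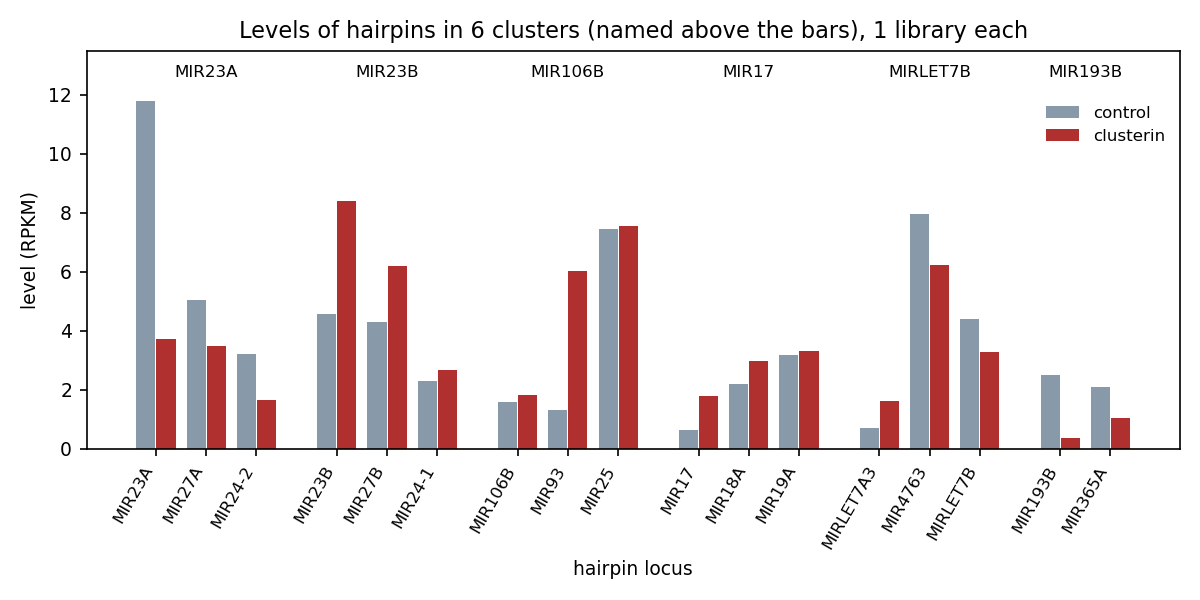
Level of each hairpin (y axis, RPKM) in 6 genomic clusters, each named above its bars by a hairpin it holds, with the control library in grey and the clusterin library in red, 1 library each and so without error bars. All 3 hairpins of the 23a cluster are lower with clusterin (MIR23A 11.8 and 3.72). All 3 of the 23b cluster have a higher RPKM (MIR23B 4.58 and 8.39), though MIR24-1 had 6 reads in each library.

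RefSeq gave 311 mature sequences for 205 of the 215 members at their RefSeq position outside chromosome 8. They had 276 different seeds, and 23 seeds were shared by at least 2 members, 47 members in all. Of 21 shared seeds with recovered reads, the summed ratio had an interval without 1 for AAAGUGC only, the seed of miR-17, miR-93 and miR-106b. No allowance was made for the number of seeds summed. MIR17, MIR93 and MIR106B had 11 reads in the control and 26 with clusterin, a ratio of 2.72 (1.30 to 6.11). MIR17, at 0.623 RPKM in the control and 1.79 with clusterin, was admitted through the clusterin library, in which it was high. Without MIR17 the sum was 9 and 21 reads, a ratio of 2.69 (1.18 to 6.67). All 3 had a higher RPKM with clusterin, though MIR106B had 5 reads in each library. Without MIR93 the sum was 7 and 10 reads, a ratio of 1.65 (0.566 to 5.10).

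Summed over the 23a and 23b clusters, the intervals of the totals per seed all held 1 and were wide. For UCACAUU (MIR23A and MIR23B) they were 50 and 36 reads, a ratio of 0.830 (0.525 to 1.30). For UCACAGU (MIR27A and MIR27B) they were 31 and 29, a ratio of 1.08 (0.627 to 1.85). GGCUCAG (MIR24-1 and MIR24-2) had 15 and 10, a ratio of 0.768 (0.309 to 1.83). The let-7 seed GAGGUAG was shared by the most members, 7 loci with 42 and 40 reads, a ratio of 1.10 (0.694 to 1.73), 5 of them higher and 2 lower. Within it, MIRLET7A1 had 2 and 5 reads, MIRLET7F1 4 and 4, MIRLET7I 8 and 8, and MIR4458 6 and 6. Loci with equal reads are among the 5 called higher, because the control total was larger. ACUGGCC (MIR193A and MIR193B) had 13 and 5 reads, a ratio of 0.443 (0.124 to 1.32).

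Among microRNAs grouped by the tissue in which they are known, most were listed at 0, which in this table need not mean low expression (RPS18, above). All 6 of the RPE and retina group (MIR204, MIR211, MIR184, MIR182, MIR96 and MIR183) were at 0 in both libraries, as were all 6 of the epithelial MIR200 and MIR205 group, all 8 muscle hairpins, liver MIR122, all 6 blood cell hairpins and all 5 of the fibroblast and smooth muscle group. Of 9 neuronal hairpins, MIR137 alone was above 0, at 2.31 and 3.84 RPKM (9 and 13 reads). Of 11 let-7 loci 5 were members, of 15 in the MIR17 clusters 6, of 11 in the p53 and stress group 5, and of 6 in the MIR23, MIR27 and MIR24 group 6. In these 4 groups, 2 loci were past 2-fold, MIR93 higher and MIR23A lower, both described above.

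In the p53 and stress group, MIR210, a hypoxia-induced microRNA, stood at 6.66 and 6.58 RPKM, beside 7.57 and 7.26 for its host MIR210HG. MIR22 stood at 7.38 and 7.09 beside 5.09 and 4.76 for MIR22HG. MIR21 stood at 4.36 and 5.02 RPKM, and the table's VMP1, whose RefSeq span holds it, at 48.3 and 44.2. MIR221 had 5 reads in each library and MIR34A, a direct target of p53, 5 and 4.

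The genes that make microRNAs were slightly lower with clusterin, as were most genes. Of 25 in the pathway list 22 had a mean of 1 RPKM or more, 2 of them above 0 and 20 below, with a median log2 difference of -0.11 against -0.06 over all genes, and 17 were below that median. After the same rescaling the list's median was -0.04. None was 2-fold apart. DROSHA stood at 10.8 and 9.41 RPKM, DGCR8 at 6.93 and 6.19, and DICER1 at 3.89 and 3.34. The highest differences were 0.10 for PRKRA and 0.04 for TARBP2, both partners of DICER1, and the lowest -0.25 for AGO4 and -0.24 for HNRNPA1, a binding protein of some primary transcripts. LIN28A and LIN28B, which block let-7 processing, were listed at 0 in both libraries.

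The table also held 6 pairs of hairpins that overlap on opposite strands. In the 2 pairs of identical span, MIR3158-1 with MIR3158-2 and MIR548AA1 with MIR548D1, both rows held equal values in each library (3.23 and 3.72 RPKM for the former pair). For MIR423 and MIR3184, which lie opposite each other, the levels were 4.45 and 6.73 RPKM and 3.14 and 2.81. A gene and its antisense partner therefore could not be told apart from these values where their spans were the same.

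At the threshold, the members just inside it were MIR635 (0.801 RPKM in the control and 1.23 with clusterin), MIR320A (0.957 and 1.10) and MIR2116 (1.31 and 0.754). Just outside were MIRLET7C (1.25 and 0.718), MIR125A (0.912 and 1.05) and MIR941-4 (0.820 and 1.16).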

How the data were processed

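RNA sequencing of clusterin-treated and control D407 cells, 1 library per group, was analysed from the deposited gene table; groups came from the labels. Per the submitters' processing notes, the authors used Bowtie, TopHat and Cuffdiff with build hg19; no version or strand setting is given in the sources used here. The authors deposited per gene a level for each library, and p-values, q-values and log2 fold changes. The level column is named RPKM here from its values: the deposited RPKM times gene length gave whole numbers within 0.02 at 1 total per library for short genes, and these are called reads. Hairpin positions were those of GRCh38 for 225 of 231 members, matched to RefSeq within 2000 bp, and none was converted.

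Differences were taken on the log2(RPKM + 1) scale, and ratios carry exact Clopper-Pearson 95% intervals of the clusterin share of reads, which cover counting error only. Other short RNA genes were those of at most 350 bp. A host was the shortest listed same-strand gene whose listed span holds the hairpin. Where there was none, RefSeq's spans were used, with listed genes taken before unlisted ones and then the shortest. Hairpins named are the 15 with the most reads, the 5 highest levels, all past 2-fold or with an interval without 1, members of clusters with at least 20 reads or of fixed groups, those at the threshold, and their hosts; MIR590, MIR365A, MIR193A, MIR1244-1 to MIR1244-3, MIR4321, MIR4745, MIR4647, MIR612, MIR548AA1 and MIR548D1 were singled out after their values were seen. Members and lists were chosen with earlier results of these data known. The steps were tested on simulated data with Python 3.11.15, numpy 2.4.6, pandas 2.3.3 and scipy 1.17.1. Other thresholds, pseudocounts, scalings, intervals, gaps and host rules were tried. The host gene of 1 named hairpin is not reported here.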

Additional observations from a re-analysis of the deposited data

How the results depend on the processing

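With 1 library per group, neither a test between groups nor leaving out a replicate was possible. No paired analysis was possible because each group has 1 library. A mean of at least 5 RPKM left 90 of the 231 members. The 16 loci past 2-fold became 34 with a pseudocount of 0.1 (16 higher, 18 lower) and 0 with a pseudocount of 5 (0 higher, 0 lower), 9 among loci with at least 10 reads (4 higher, 5 lower) and 2 among those with at least 20 (1 higher, 1 lower); with fewer loci admitted, the last counts are smaller by construction. With the control rescaled by 0.953, 15 were past 2-fold. Intervals below 1 numbered 3 after that rescaling and 2 with 99% intervals, in place of 7, and intervals above 1 numbered 9 and 5, in place of 6. The median hairpin level relative to its host was 0.913 times with at least 20 reads, in place of 0.560, and 0.481 for hosts of at least 5 RPKM. Selecting by hairpin reads raises that ratio by construction. Among the 74 members named by the rule, 5 values left their counting interval with a pseudocount of 0.1, 2 after rescaling and 0 with a pseudocount of 5. None changed sign from a call. The 2 moved by rescaling were MIR675 (log2 difference 0.22 in place of 0.15) and MIR3648 (0.30 in place of 0.23). Their narrow counting intervals therefore do not cover this change of scale. The number of genomic clusters was 16 with a gap of 1000 bp and 23 with 50000 bp, in place of 18. The median difference of the processing genes was -0.04 after rescaling, an alternative added after seeing the data, as were leaving out hairpins over other small RNA genes (16 past 2-fold) and the 23b sum with either strand (1.59). Depth limits the precision: a hairpin of median length has about 3 reads per RPKM, and reads were not recovered for 14 members.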
